A study of Rattus norvegicus with 18 samples.

Results

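Fatty acids are burned in mitochondria and peroxisomes, and the genes described here encode that machinery in kidney cortex: regulators, carnitine transport, mitochondrial and peroxisomal beta-oxidation, ketone body enzymes and acyl-CoA thioesterases. They were taken as a list of 47 symbols, of which 43 have a row in the deposited table of 18420 genes. Decr2, Acot1, Acot3 and Acot12 have no row under these symbols, so their expression was not analysed here. RNA-seq libraries had been made from the kidney cortex of ZDF (Zucker diabetic fatty) rats, 6 in each of 3 groups. The healthy control group was lean, non-diabetic and heterozygous for the fa allele of the leptin receptor (ZDF fa/+). The disease group was homozygous (ZDF fa/fa) and diabetic, and the third group was ZDF fa/fa and had undergone Roux-en-Y gastric bypass (RYGB). The bypass leaves a small gastric pouch joined to a lower stretch of intestine, and the labels call these rats diabetic too. All 3 groups are on the ZDF strain and carry at least 1 fa allele, and the labels used here give no age, sex, time after surgery or sham operation. With no sham-operated group among the labels, the bypass itself and the handling around surgery cannot be told apart. Rats homozygous for fa lack working leptin receptors in every tissue and are obese as well as diabetic.

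Long-chain fatty acids are joined to coenzyme A, passed into the mitochondrion as carnitine esters and shortened in a repeating cycle of dehydrogenation, hydration, a second dehydrogenation and thiolysis. Peroxisomes shorten very long and branched chains, and thioesterases release the free acid from its coenzyme A ester. The proximal tubule of the kidney cortex draws most of its energy from this pathway, and the nuclear receptor PPAR-alpha, encoded by Ppara, switches on many of its genes. PPAR-alpha binds DNA together with a retinoid X receptor at a direct repeat of a 6-base unit, AGGTCA, with 1 base between its copies.

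Promoters are shown first because 4 members were called between groups and the pathway has a known binding motif. RefSeq (GRCr8) gave a promoter of 300 bases, 250 before and 50 after the start site, for 43 of the 47 members. These are not the same 43 as those with a row in the deposited table. They include Decr2, Acot1, Acot3 and Acot12, which have no row, and lack Cpt1b, Acadl, Decr1 and Acaa2, which have one. That direct repeat was searched on both strands. Each member was counted with 1 promoter. The background was every promoter of 300 bases given, not reduced to 1 per gene or to the genes of the deposited table. With at most 2 mismatches it was found in 10 of the 43 members (23.3%) and in 3.77% of all 33469 promoters, and with at most 3 mismatches in 19 members (44.2%) and 24.9% of all. The single unit AGGTCA, which the direct repeat contains, was found without mismatch in 13 members (30.2%) and 16.2% of all promoters. The windows of Hadha and Hadhb overlap on opposite strands and hold the same match. The closest matches, with 1 mismatch each, lay in Acadvl, Acot4, Acot8 and Acot12. They are written in the direction of the motif, capitals marking the bases that match it:
Acadvl: AGGTCAGtGGTCA
Acot4: AGGTCAGAGGTCt
Acot8: gGGTCAGAGGTCA
Acot12: AGGTgAGAGGTCA
Of these, Acadvl, Acot4 and Acot8 were tested and not called in any comparison, and Acot12 has no row. The called members were Acot5 (chr6:109432812-109433111, plus strand), Acox2 (chr15:19090705-19091004, plus strand), Hadh (chr2:222504397-222504696, minus strand) and Cpt2 (chr5:127910769-127911068, minus strand). Their promoters follow in the direction of transcription, with capitals for a direct repeat of at most 3 mismatches or an exact single unit:
Acot5: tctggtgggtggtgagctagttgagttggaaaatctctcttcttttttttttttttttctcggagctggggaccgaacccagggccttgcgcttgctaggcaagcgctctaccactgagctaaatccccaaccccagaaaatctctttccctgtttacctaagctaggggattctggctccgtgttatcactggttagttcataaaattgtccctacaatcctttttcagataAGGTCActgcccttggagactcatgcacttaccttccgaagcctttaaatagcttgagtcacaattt
Acox2: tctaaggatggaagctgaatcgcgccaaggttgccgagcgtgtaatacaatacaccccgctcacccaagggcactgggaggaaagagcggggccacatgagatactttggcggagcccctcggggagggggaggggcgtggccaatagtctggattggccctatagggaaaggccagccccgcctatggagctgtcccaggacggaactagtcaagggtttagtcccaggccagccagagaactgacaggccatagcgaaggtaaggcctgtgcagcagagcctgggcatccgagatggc
Hadh: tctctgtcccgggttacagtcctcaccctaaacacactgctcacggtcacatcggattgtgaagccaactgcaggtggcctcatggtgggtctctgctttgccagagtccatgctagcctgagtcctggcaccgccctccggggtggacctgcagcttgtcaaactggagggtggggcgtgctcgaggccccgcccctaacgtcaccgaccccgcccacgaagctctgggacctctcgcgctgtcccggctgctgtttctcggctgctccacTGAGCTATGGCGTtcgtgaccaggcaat
Cpt2: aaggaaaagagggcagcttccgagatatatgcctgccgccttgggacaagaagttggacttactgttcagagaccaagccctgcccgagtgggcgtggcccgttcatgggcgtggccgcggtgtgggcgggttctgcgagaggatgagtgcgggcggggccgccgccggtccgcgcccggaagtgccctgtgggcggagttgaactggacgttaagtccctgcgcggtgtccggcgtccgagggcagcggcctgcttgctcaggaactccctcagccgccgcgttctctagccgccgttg
Acot5 held an exact unit beginning 17 bases before the start site, Hadh a direct repeat with 3 mismatches on the opposite strand beginning 23 bases into the transcript, and the closest match in Acox2 and Cpt2 had 4 mismatches and is not marked. These are matches of letters in this window and describe no binding.

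Healthy control replicate 4 was the shallowest library, with 8116638 reads in genes, and the deepest had 42713246. Values below are normalised read counts, that is counts divided by the authors' size factor for the library, given for replicates 1 to 6 in that order where all 6 are listed, or as mean ± SD with n = 6. Fold changes are log2 values ± SE from limma on log2(value + 1), tested in all 13988 genes that reached 10 in at least 6 libraries, and called means an adjusted p under 0.05. Of the 43 members present 41 were tested. Acot5 reached the minimum in all 6 healthy control libraries but in only 3 disease and no RYGB library. The untested members were Echs1, an enoyl-CoA hydratase with 0 to 9.58 normalised reads, and the uncoupling protein Ucp3, at 0 in 17 libraries and 1.96 (2 reads) in disease replicate 2. Of 18 listed proximal tubule markers 16 had a row, and none of these was at 0 throughout a group. Muscle, which expresses the same pathway strongly, was represented by 9 of 12 listed markers that summed to 25.2 to 134 normalised reads in any library. Of 10 adipocyte markers 8 had a row, with sums of 534 to 1540 in any library. The 4 that reached the test were Adipoq, Cidec, Cidea and Fabp4. Plin1, on the same list, was at 0 in all healthy control and disease libraries and at most 3 normalised reads in RYGB. Of the 4 tested, 1 was called lower in RYGB against disease, where 2.10% of all genes were called lower. Their fold changes there ran from -0.93 (Fabp4) to 1.51 (Cidec, not called). None was called in disease or RYGB against healthy control.

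Healthy control replicate 4 differed from the rest of its group in these genes: it was the highest of the 6 healthy control libraries in 22 of the 41 tested members (53.7%), against 26.5% of all tested genes. For Pdk4, a kinase that shuts off pyruvate dehydrogenase, it had 3052 normalised reads where the other 5 had 352 to 579.5. The same library had 10141 for Eci1 (others 2611 to 3935) and 9677 for Decr1 (3163 to 4176), enzymes that handle double bonds. It was low in Oxct1, 13129 against 28440.2 to 34987. In 27 of the 41 members (65.9%) and 61.0% of all genes it lay nearer to the mean of the 12 fa/fa libraries than to that of the other 5 healthy control libraries, where those 5, each set against the rest in the same way, did so in 5 to 17 members and 30.6 to 52.8% of genes. Its label was kept, and whether that label is right was not tested. Results that turn on this library are given with and without it. It was singled out by its values in these same members. A smaller adjusted p without it therefore describes its weight in the fit and is no separate support for those members.

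The members' level also moved from library to library within each group. In each group the library with the lowest sum of the 16 proximal tubule markers was the lowest in more members than any other library of the group: healthy control replicate 1 (marker sum 376938, lowest in 20 of 41), disease replicate 5 (303512, lowest in 27 of 41) and RYGB replicate 2 (523626, lowest in 15 of 41). These shares, 48.8%, 65.9% and 36.6%, stood beside 25.8%, 22.8% and 23.9% of all tested genes. The library with the highest marker sum of each group was likewise highest in the most members: healthy control replicate 4 (632763, 22 of 41), disease replicate 4 (787979, 14 of 41) and RYGB replicate 5 (996366, 14 of 41). In disease replicate 4 that was 34.1% of members against 13.3% of all genes, and in RYGB replicate 5 34.1% against 10.9%. In bulk tissue, fewer proximal tubule cells and less RNA per cell cannot be told apart. Late proximal tubule markers summed to 45739.98 to 121721 in healthy control, 12681 to 26210 in disease and 14350 to 71183 in RYGB, and 5 of their 8 genes were lower in disease than in healthy control by the test. Of the 16 proximal tubule markers 5 were positive in disease against healthy control (0 called higher, 1 lower), 13 in RYGB against disease (2 called higher, 0 lower) and 12 in RYGB against healthy control (1 called higher, 1 lower). The 5 thick ascending limb markers tested were all negative in disease against healthy control (2 called) and all positive in RYGB against disease (3 called). Tubular injury markers summed to 13398 to 21688, 26721 to 52324 and 17963 to 20963. Reads not counted to any gene, a measure of library quality, made up 58.5% in healthy control replicate 1 and 53.7% and 52.2% in disease replicates 1 and 2. They made up 45.05 to 49.9% in the other 15 libraries. They include reads outside genes, reads that fit several places and ambiguous reads. The part of these markers and shares in the differences below was not tested.

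**Figure D1:**
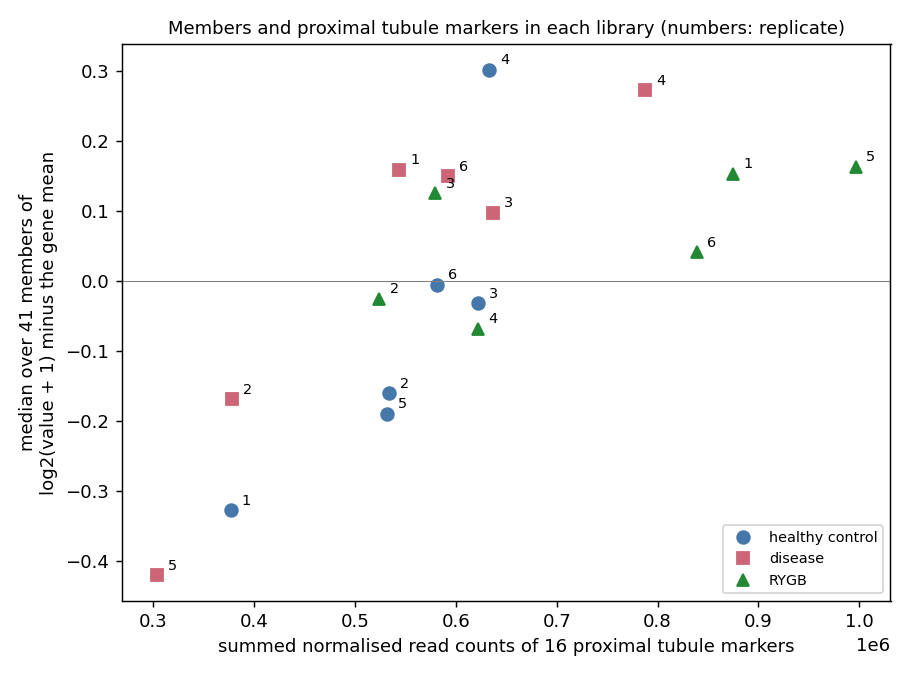
Summed normalised read counts of 16 proximal tubule markers (horizontal axis) and the median over the 41 tested members of log2(value + 1) minus the gene's mean over the 18 libraries (vertical axis); each point is a library, numbered by replicate. Disease replicate 5 and healthy control replicate 1 lie lowest on both axes, at 303512 and 376938 marker reads, and healthy control replicate 4 has the highest members' median although its marker sum, 632763, is not the highest.

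**Figure D2:**
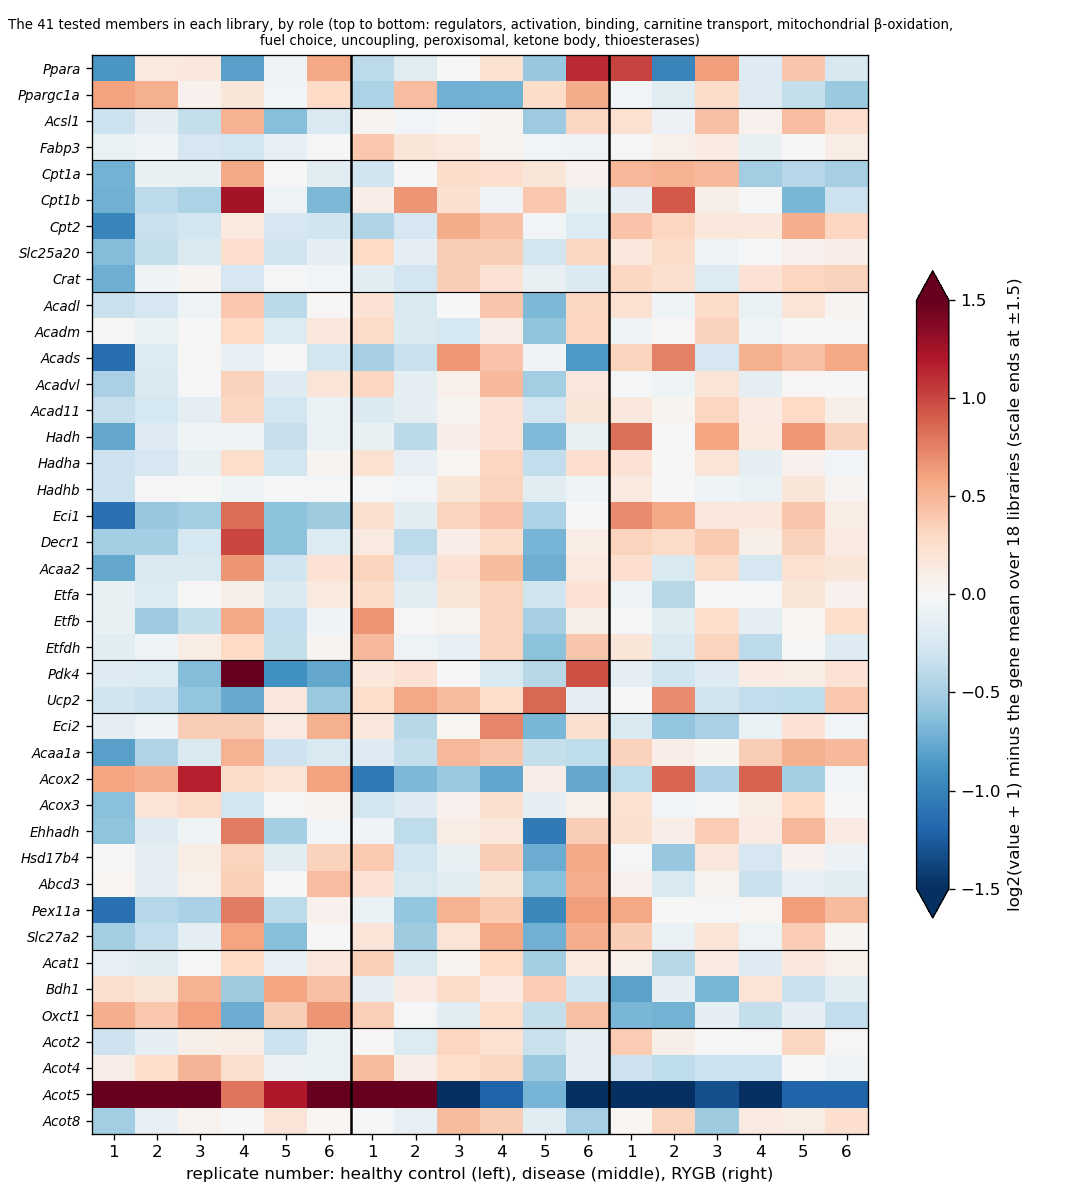
The 41 tested members (rows, by role) in the 18 libraries (columns, replicates 1 to 6 of each group); colour is log2(value + 1) minus the gene's mean, red higher and blue lower, and values past 1.5 take the end colours. Healthy control replicate 4 is above the gene's mean in 31 of 41 members and disease replicate 5 in 6 of 41, and Acot5 is red in healthy control and blue in RYGB.

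The 3 comparisons share their groups in pairs, so the values below are given side by side and their likeness is not a result. In disease against healthy control 2 of 41 tested members (4.88%) were called, both lower in disease: the peroxisomal oxidase Acox2 and the thioesterase Acot5. The background was 1.61% of all genes called, 0.579% higher and 1.03% lower, and the groups' libraries did not overlap in 1 member, Acox2, against 1.24% of all genes. At an unadjusted p below 0.05 there were 5 of 41 members and 11.1% of all genes. The 21 tested mitochondrial members had a median fold change of 0.15 and 20 of them were positive, against a median of 0.0016 and 50.4% positive over all genes, and none was called. Their median absolute fold change was 0.146, against 0.141 over all genes. As described above, the members' level moved from library to library, so these signs are not separate observations. Without healthy control replicate 4 the median fold change of the mitochondrial members was 0.24, again with 20 positive. The replicate number was also tried as a block, though the labels give no pairing of libraries. No member was then called over all 3 groups (1.13% of all genes), and 3 were called with the compared groups alone (Ucp2, Acox2 and Acot5, 1.8%). The count was 0 without healthy control replicate 3 or 6 or disease replicate 4, where 0.888 to 0.981% of all genes were called. It was 1 without healthy control replicate 1 or 2, disease replicate 1, 3 or 5, or RYGB replicate 1, 3, 4, 5 or 6 (0.967 to 1.58% of all genes). It was 3 without healthy control replicate 4, where Eci1 was called higher (0.73 ± 0.16, adjusted p = 0.0208) beside a background of 2.22%.

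RYGB against disease called 0 of 41 members with limma, while 3.95% of all genes were called, 1.84% higher and 2.10% lower. At an unadjusted p below 0.05 there were 5 of 41 members and 20.7% of all genes. No tested member had non-overlapping libraries, against 2.60% of all genes. On the recovered reads edgeR called 1 member (Hadh) and 4.50% of all genes, and DESeq2 called 2 (Hadh and Acot5) and 7.85%. The members' median fold change was -0.005 and 20 of 41 were positive, against -0.0009 over all genes. Leaving out healthy control replicate 1 or 4, disease replicate 3 or 4, or RYGB replicate 2 gave a call for Hadh, 1 member in each case beside 2.6 to 5.42% of all genes.

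RYGB against healthy control called 3 of 41 members (7.32%): the carnitine transferase Cpt2 and the dehydrogenase Hadh were higher in RYGB and Acot5 was lower. All genes were called at 4.44%, 2.46% higher and 1.98% lower. The libraries did not overlap in the same 3 members, against 3.22% of all genes. At an unadjusted p below 0.05 there were 13 of 41 members and 26.2% of all genes. Of the 21 tested mitochondrial members 20 were positive, with a median of 0.18 against -0.01 over all genes, of which 48.4% were positive. The median absolute fold change of these members was 0.182, against 0.226 over all genes. Without healthy control replicate 4 all 21 were positive, with a median of 0.33. Without that library the count of called members was 11 of 41, 8 higher and 3 lower, beside a background that also grew, to 10.8% of all genes (5.97% higher, 4.79% lower). It was 7 without RYGB replicate 3, beside 1403 of all 13966 genes tested, and 1 (Acot5) without healthy control replicate 1, 2 or 5 or RYGB replicate 1, 5 or 6, beside 1.46 to 2.19% of all genes.

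**Figure D3:**
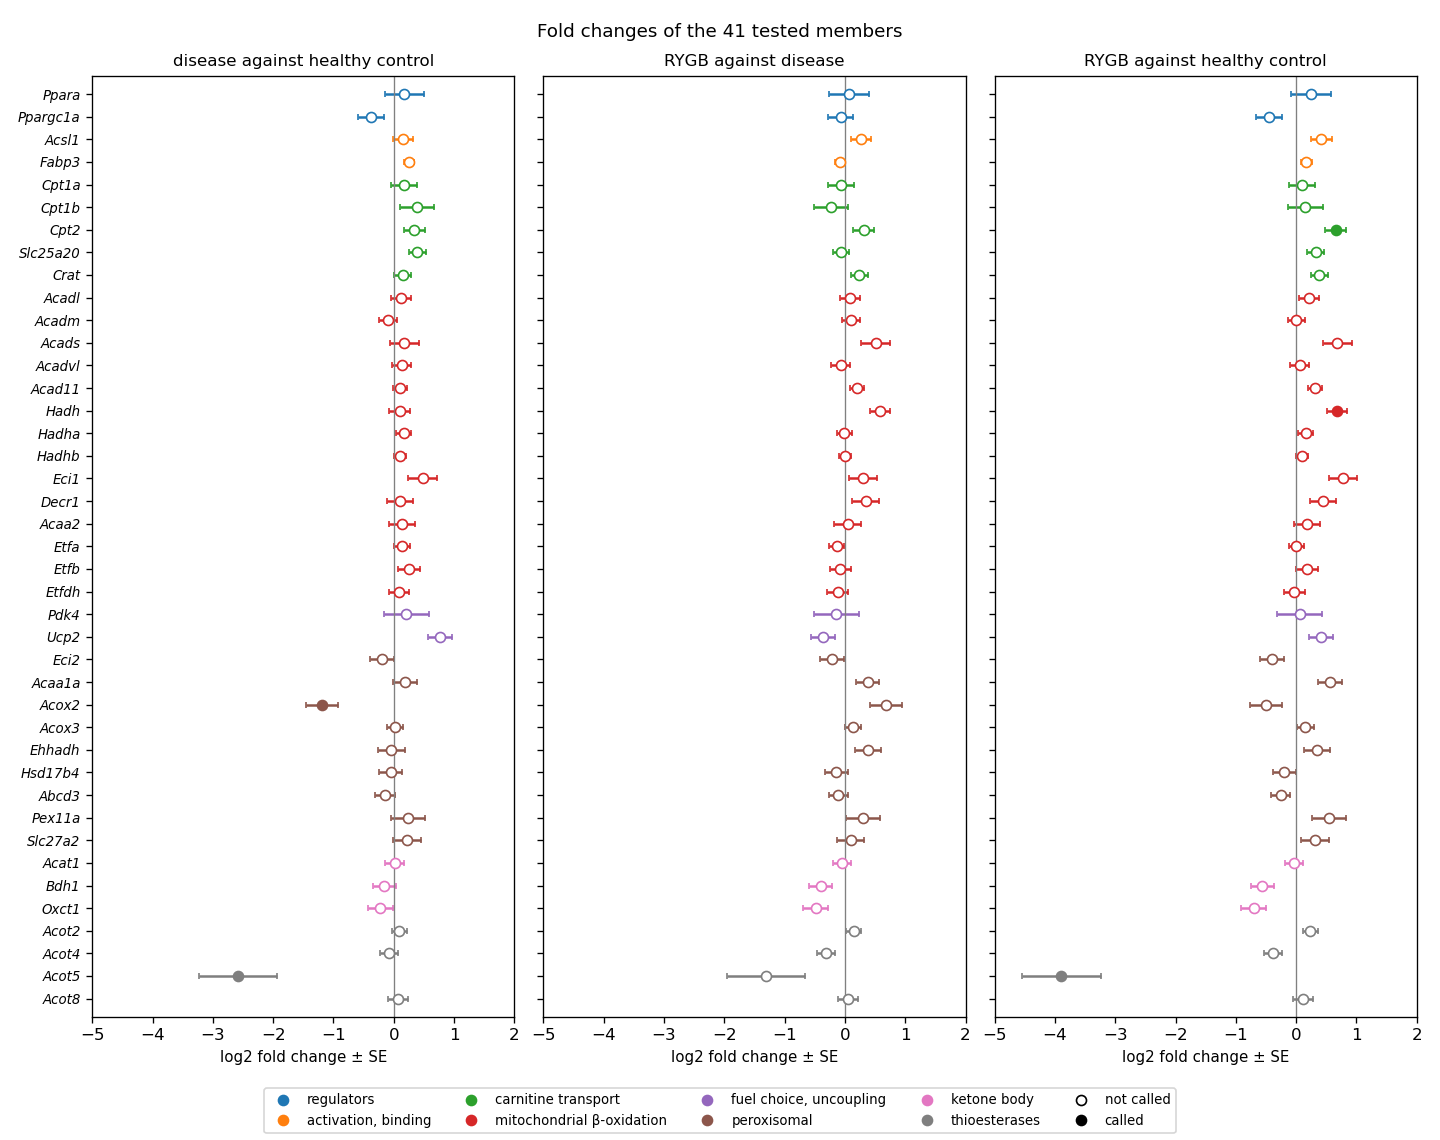
Log2 fold changes ± SE (horizontal axis) of the 41 tested members (vertical axis, coloured by role) in the 3 comparisons; filled points were called. Acox2 (-1.19) and Acot5 (-2.58) are called in disease against healthy control, none in RYGB against disease, and Cpt2 (0.65), Hadh (0.68) and Acot5 (-3.89) in RYGB against healthy control.

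Neither regulator was called in any comparison. Ppara ran from 299 through a median of 571 to 826 normalised reads in the healthy control libraries, from 372 through 519.6 to 1202 in disease and from 278 through 608 to 1113 in RYGB. The spread in every group was wide, disease replicate 6 (1202) and RYGB replicate 1 (1113) lying highest, and all 3 groups overlapped. The fold change of Ppara was 0.18 ± 0.33, adjusted p = 0.892 in disease against healthy control and 0.25 ± 0.33, adjusted p = 0.644 in RYGB against healthy control. Against disease it was 0.07 ± 0.33 in RYGB, and it turned negative without disease replicate 1 or 5 or RYGB replicate 1 or 3 (-0.11 to -0.02). The fold change of disease against healthy control turned negative without disease replicate 6 (-0.04). Ppargc1a encodes PGC-1-alpha, a coactivator that drives mitochondrial biogenesis. Ppargc1a ran from 1079 through a median of 1317 to 1696 normalised reads in the healthy control libraries, from 675 through 1079 to 1641 in disease and from 759 through 980.3 to 1353 in RYGB. The disease libraries fell into 3 of 1353.5 to 1641 and 3 of 675 to 805 normalised reads, within which no condition is labelled. Its fold change was -0.37 ± 0.21, adjusted p = 0.56 in disease and -0.45 ± 0.21, adjusted p = 0.192 in RYGB, each against healthy control. Against disease it was -0.07 ± 0.21 in RYGB, and it turned positive without disease replicate 2 (0.04), 5 (0.003) or 6 (0.06) or RYGB replicate 6 (0.003).

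Acsl1 joins long-chain fatty acids to coenzyme A, and Fabp3 binds them in the cytosol; neither was called. Acsl1 ran from 5567 through a median of 7136 to 12429.7 normalised reads in the healthy control libraries, from 5943 through 8688 to 10734 in disease and from 8123 through 10214 to 11918 in RYGB. Without healthy control replicate 4 the highest of the other healthy control libraries was 7870.3, below all 6 RYGB libraries. The fold change of Acsl1 in RYGB against healthy control was 0.42 ± 0.17, adjusted p = 0.127, and without that library 0.56 ± 0.14, adjusted p = 0.0167. Fabp3 was the steadiest member, with a coefficient of variation of 7.28% in healthy control, 12.7% in disease and 6.16% in RYGB. Its fold change was 0.25 ± 0.09, adjusted p = 0.237 in disease against healthy control.

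All 5 carnitine transport members had a positive fold change in disease and in RYGB against healthy control. Of them 1 was called, in RYGB against healthy control, where 2.46% of all genes were called higher. Cpt2 sits on the inner mitochondrial membrane and turns acylcarnitine back into acyl-CoA. The healthy control libraries had 719, 1121, 1161, 1568, 1185 and 1145 normalised reads of Cpt2. Disease libraries had 1029, 1189.6, 2083, 1916, 1370.5 and 1229, and RYGB libraries had 1892, 1771, 1570.4, 1579, 2053 and 1769. Every RYGB library lay above every healthy control library, the nearest pair being RYGB replicate 3 (1570.4) and healthy control replicate 4 (1568), while disease spanned both groups. Cpt2 rose 1.54-fold in RYGB against healthy control, from 1149.6 ± 269 to 1772 ± 185 (0.65 ± 0.17, adjusted p = 0.039). That call was lost without any 1 of the healthy control libraries but replicate 4 and without any 1 of the RYGB libraries but replicate 3 (adjusted p = 0.062 to 0.103).

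Cpt1a, the enzyme that commits long-chain fatty acids to mitochondrial entry, showed no called difference. The healthy control libraries had 3536, 5334, 5334, 8559, 5761 and 5103 normalised reads. Disease libraries had 4696, 5805, 6964, 6833, 6510 and 6029, and RYGB libraries 8154, 8249, 8098, 4003, 4271 and 4066. RYGB replicates 1, 2 and 3 lay between 8098 and 8249 and replicates 4, 5 and 6 between 4003 and 4271, with nothing between. The labels name no condition that differs between them. The numbers in the sample descriptions are lower in replicates 1, 2 and 3 than in replicates 4, 5 and 6. What these numbers mean is not given, and a part for them was not tested. The group means of disease and RYGB were 6139.5 ± 837 and 6140.2 ± 2222. The fold change was -0.07 ± 0.22, adjusted p = 0.88 in RYGB against disease, with a 95% interval of -0.52 to 0.38, and it turned positive without RYGB replicate 4, 5 or 6 (0.02 to 0.04). In RYGB against healthy control it was 0.10 ± 0.22 and turned negative without healthy control replicate 1 (-0.03) or RYGB replicate 1 (-0.002) or 2 (-0.005). The carnitine-acylcarnitine carrier Slc25a20 had 1137 to 2132 normalised reads in healthy control, 1479.9 to 2322 in disease and 1703 to 2172 in RYGB. Its fold change of 0.33 ± 0.14, adjusted p = 0.15 in RYGB against healthy control became 0.42 ± 0.13, adjusted p = 0.0411 without healthy control replicate 4. Cpt1b, the muscle form of the first transferase, had 222 ± 151, 259 ± 54.6 and 231 ± 98.2 normalised reads in the 3 groups, and Crat, which makes acetylcarnitine, had a fold change of 0.38 ± 0.14, adjusted p = 0.108 in RYGB against healthy control.

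**Figure D4:**
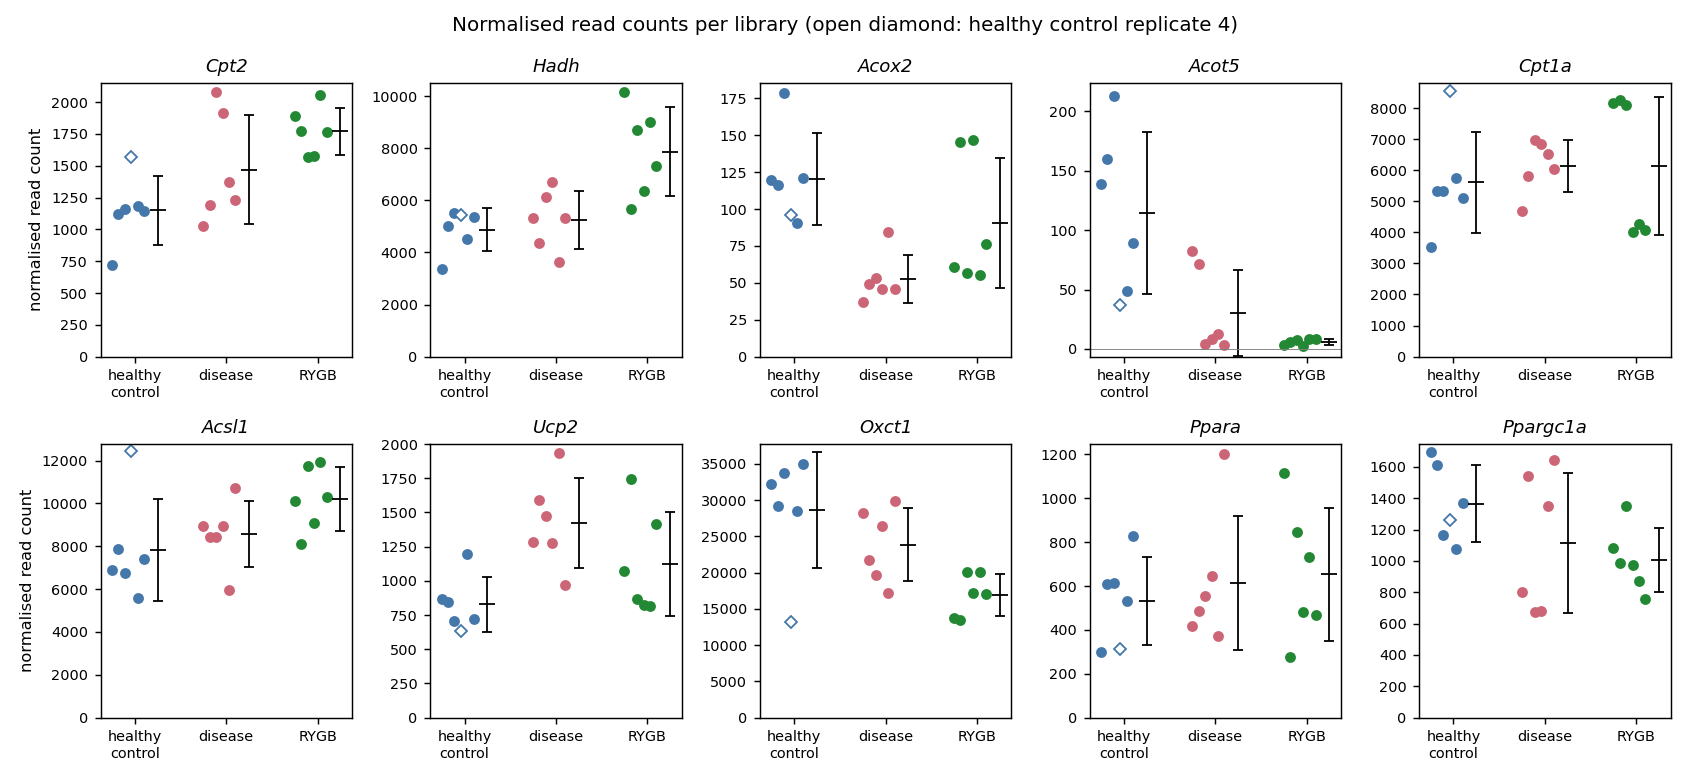
Normalised read counts (vertical axes, linear) of 10 members in each library of the 3 groups, with the mean ± SD (n = 6) beside the points; the open diamond is healthy control replicate 4. RYGB lies above healthy control in every library for Cpt2 and Hadh and below it for Acot5, disease lies below healthy control for Acox2, and Cpt1a splits into 3 high and 3 low RYGB libraries.

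Of the 14 tested genes of the mitochondrial beta-oxidation cycle 1 was called, in RYGB against healthy control, where 2.46% of all genes were called higher. Hadh carries out the second dehydrogenation on short and medium chains. Its healthy control libraries had 3375, 5018, 5505, 5446, 4531 and 5360.4 normalised reads. Disease libraries had 5304, 4357, 6145, 6694, 3639.6 and 5324, and RYGB libraries 10168, 5653, 8700, 6361, 9015 and 7305. All RYGB libraries lay above all healthy control libraries, and 2 of them, replicates 2 and 4, lay within the range of disease. Hadh rose 1.61-fold in RYGB against healthy control, from 4873 ± 818 to 7867 ± 1719.9 (0.68 ± 0.17, adjusted p = 0.0285). The call was lost without healthy control replicate 1, 2 or 5 or RYGB replicate 1, 5 or 6 (adjusted p = 0.0535 to 0.0815). Against disease its fold change in RYGB was 0.58 ± 0.17, adjusted p = 0.0539, and in disease against healthy control 0.10 ± 0.17, adjusted p = 0.881. The last turned to -0.006 without healthy control replicate 1.

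The first dehydrogenases of the cycle differ in chain length, and limma called none over all libraries. Acads, for short chains, had 824 to 1822 normalised reads in healthy control, 993 to 2827 in disease and 1516 to 3044 in RYGB, with a fold change of 0.69 ± 0.24, adjusted p = 0.0902 in RYGB against healthy control. It was called there by DESeq2, with array weights, with the compared groups alone and without RYGB replicate 3. Acad11 had 0.31 ± 0.12, adjusted p = 0.11, and without healthy control replicate 4 0.40 ± 0.10, adjusted p = 0.0197. Acadm, for medium chains, lay near 0 in all 3 comparisons (-0.09, 0.10 and 0.01). So did the trifunctional protein beta subunit Hadhb, whose 95% interval in RYGB against disease was -0.21 to 0.20.

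Eci1 and Decr1 prepare unsaturated fatty acids for the cycle, and neither was called over all libraries with limma as described above. In RYGB against healthy control both were called without healthy control replicate 4 (10.8% of all genes called) and with array weights (34.7%). Eci1 was also called after quantile normalization (5.79%) and without RYGB replicate 3 (10%). Without healthy control replicate 4 Eci1 ran from 2611 to 3935 normalised reads in healthy control, 4060.5 to 7583 in disease and 6129.6 to 9221 in RYGB. Healthy control then overlapped neither fa/fa group. With all libraries its fold change in RYGB against healthy control was 0.77 ± 0.23, adjusted p = 0.0599, and without that one 1.03 ± 0.16, adjusted p = 0.000723. Decr1 had 0.45 ± 0.22, adjusted p = 0.197 with all libraries and 0.68 ± 0.15, adjusted p = 0.00741 without it. The electron acceptors Etfa, Etfb and Etfdh had fold changes of -0.03 to 0.26 in disease and RYGB against healthy control, none of them called.

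Ucp2, an inner membrane carrier named for uncoupling, and Pdk4 were tested for fuel choice and uncoupling, and neither was called. Ucp2 ran from 633 through a median of 785 to 1196 normalised reads in the healthy control libraries, from 967 through 1379 to 1936 in disease and from 816 through 972 to 1743 in RYGB. Only healthy control replicate 5 (1196) and disease replicate 6 (967) kept healthy control and disease from parting. The fold change of Ucp2 was 0.78 ± 0.20, adjusted p = 0.0532 in disease against healthy control and -0.37 ± 0.20, adjusted p = 0.295 in RYGB against disease. The first was called without healthy control replicate 5 (0.89, adjusted p = 0.0275), disease replicate 6 (0.88, 0.0235) or RYGB replicate 2 (0.78, 0.0282), by DESeq2 (0.0126) and with the replicate block in the compared groups alone (0.00494). Pdk4 had 495 to 1288 normalised reads in disease and 539 to 771 in RYGB, and in healthy control replicate 4 had 3052 where the other 5 had at most 579.5. Its fold change in RYGB against healthy control was 0.06 ± 0.37 with all libraries and 0.52 ± 0.20, adjusted p = 0.0928 without that one.

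Of 9 peroxisomal members tested, 1 was called, in disease against healthy control, where 1.03% of all genes were called lower. Acox2 oxidises branched chains, among them the side chains of bile acid precursors. Its healthy control libraries had 119, 116, 178, 95.7, 90.8 and 121 normalised reads. Disease libraries had 37.4, 49, 53.2, 45.7, 84.8 and 45.8, and RYGB libraries 60.6, 146, 56.8, 147, 55.4 and 76.7. All disease libraries lay below all healthy control libraries, disease replicate 5 (84.8) coming nearest, and the RYGB libraries lay in both ranges, replicates 2 and 4 being the high ones. Acox2 was 2.28 times lower in disease than in healthy control, with means of 52.6 ± 16.6 and 120.2 ± 31.2 (-1.19 ± 0.26, adjusted p = 0.0218). The call was lost without healthy control replicate 3 (adjusted p = 0.0741) or 6 (0.0542) or disease replicate 1 (0.0532) or 4 (0.0558), and with the replicate block over all groups (0.0605, against 0.0168 in the compared groups alone). Against disease its fold change in RYGB was 0.69 ± 0.26, adjusted p = 0.144.

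The other peroxisomal members were not called in any comparison. The thiolase Acaa1a had 3420.2 to 8669 normalised reads in healthy control and 6202 to 8679.6 in RYGB, with a fold change of 0.56 ± 0.19, adjusted p = 0.0901, and 0.72 ± 0.17, adjusted p = 0.0135 without healthy control replicate 4. Ehhadh, the first bifunctional enzyme, had 4040.2 to 10592, 2939.8 to 7972 and 6602 to 8671 normalised reads in the 3 groups, and Hsd17b4, the second, 8575 to 12261, 5772 to 14295 and 6509 to 10811. Pex11a, which acts in peroxisome division, had a fold change of 0.55 ± 0.28, adjusted p = 0.221 in RYGB against healthy control, the fatty acid importer Abcd3 -0.25 ± 0.16, adjusted p = 0.303, and the isomerase Eci2 -0.40 ± 0.20, adjusted p = 0.205. The median fold changes of the 9 were -0.04, 0.13 and 0.15 in the 3 comparisons.

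The 3 ketone body members act mainly where ketone bodies are interconverted and used, and none was called over all libraries. Oxct1, the transferase with which a cell uses acetoacetate, had 32177, 29136, 33751, 13129, 28440.2 and 34987 normalised reads in healthy control. Disease libraries had 28213, 21812, 19741, 26398, 17159 and 29939, and RYGB libraries 13704, 13449, 20079.7, 17178, 20114 and 17113. Healthy control replicate 4 lay below every RYGB library and the other 5 lay above all of them. The fold change of Oxct1 in RYGB against healthy control was -0.71 ± 0.21, adjusted p = 0.0569, and without that library -0.92 ± 0.16, adjusted p = 0.00138. It was also called without disease replicate 6 (0.0456) or RYGB replicate 3 (0.0399), by edgeR (0.0331) and by DESeq2 (0.00569). Bdh1, which interconverts acetoacetate and beta-hydroxybutyrate, had 1156 ± 279.6, 1019 ± 176 and 781 ± 199.9 normalised reads. Its fold change in RYGB against healthy control was -0.56 ± 0.19, adjusted p = 0.0823, and -0.71 ± 0.16, adjusted p = 0.0102 without healthy control replicate 4. The thiolase Acat1 lay at 0.01, -0.05 and -0.03 in the 3 comparisons.

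**Figure D5:**
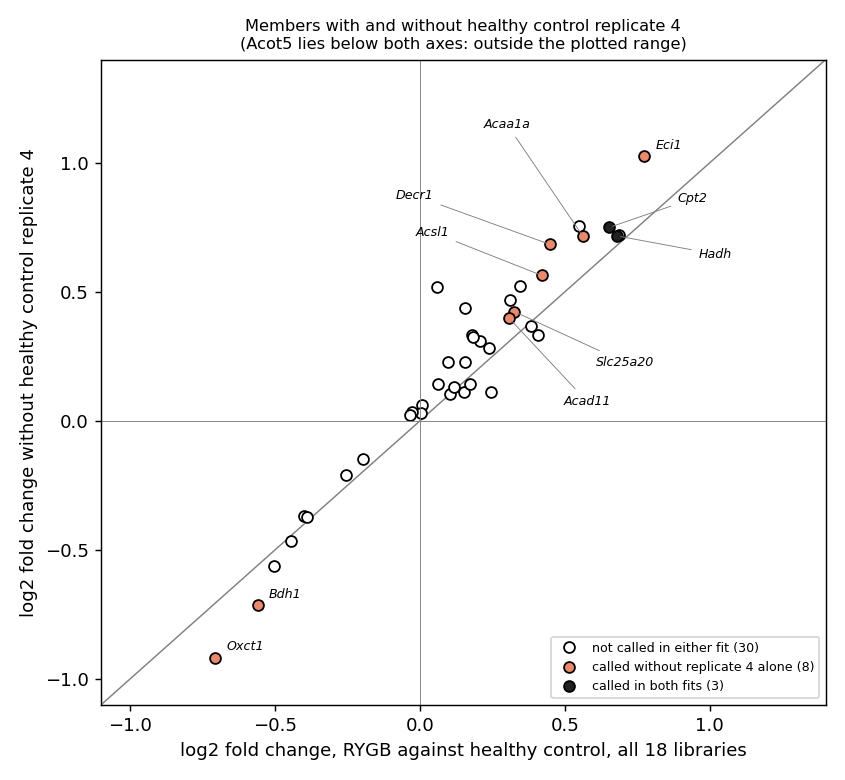
Log2 fold changes of the tested members in RYGB against healthy control over all 18 libraries (horizontal axis) and without healthy control replicate 4 (vertical axis); the diagonal marks equal values and Acot5 lies outside the range shown. Cpt2 and Hadh are called in both fits, and 8 further members, among them Eci1 (0.77 and 1.03) and Oxct1 (-0.71 and -0.92), in the second alone.

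Among the 4 tested thioesterases Acot5, a peroxisomal enzyme of the type I family, differed most. The healthy control libraries had 139, 159.7, 213, 36.8, 48.7 and 89.2 normalised reads, from 127, 209, 356, 15, 58 and 76 counted reads. Disease libraries had 82.2, 71.5, 4.26, 8.43, 12.3 and 3.39, from 33, 73, 8, 12, 8 and 2 reads. RYGB libraries had 3.31, 6, 7.65, 2.29, 8.41 and 8.38, from 3, 4, 7, 3, 17 and 7 reads. Disease replicates 1 and 2 lay within the healthy control range and the other 4 near the RYGB range, and every RYGB library lay below every healthy control library. Acot5 was 19.1 times lower in RYGB than in healthy control, with means of 6.01 ± 2.65 and 114 ± 68.4 (-3.89 ± 0.65, adjusted p = 0.00243). This call held in all 30 other settings tried (adjusted p = 1.96e-06 to 0.00917). These settings reuse the same libraries and are no separate support. Acot5 reached the minimum for testing in all 6 healthy control libraries and in no RYGB library, so it could enter the test through the group where it is high.

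In disease the mean of Acot5 was 30.4 ± 36.3, 3.77 times lower than in healthy control (-2.58 ± 0.65, adjusted p = 0.0484). That call was lost in 22 of the 30 other settings, edgeR (0.0988), DESeq2 (0.131) and the replicate block over all groups (0.0549) among them. It was lost without healthy control replicate 1, 2, 3, 5 or 6, disease replicate 3, 4, 5 or 6, or any 1 RYGB library (0.0526 to 0.144). In RYGB against disease the fold change was -1.31 ± 0.65, adjusted p = 0.259, and DESeq2 on the recovered reads called it (-2.32, 0.0313). Acot5 lies in a row of related genes on rat chromosome 6, in the order Acot2, Acot1, Rpl23al8, Acot4, Acot3, Acot5 and Acot6. Reads that fit several places were not counted to any gene, so the levels of near-identical copies in this row are uncertain. Of its neighbours, the mitochondrial Acot2 had 0.24 ± 0.12, adjusted p = 0.213 and the peroxisomal Acot4 -0.39 ± 0.15, adjusted p = 0.115 in RYGB against healthy control. Acot8, a peroxisomal enzyme of another family outside this row, had 0.12 ± 0.17, adjusted p = 0.673.

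Other genes of the pathway were counted from 3 lists. Among 35 tested of 44 further fatty acid oxidation genes, 1 rose and 1 fell in disease against healthy control, 1 rose and 1 fell in RYGB against disease, and 3 rose and 3 fell in RYGB against healthy control. These are 5.71%, 5.71% and 17.1% of the list, beside 1.61%, 3.95% and 4.44% of all genes. Baat, which conjugates bile acids to amino acids, rose in disease from 203 ± 88.2 to 510.1 ± 208 normalised reads (1.34 ± 0.27, adjusted p = 0.00959). The 3 that rose in RYGB against healthy control are named after their values were seen: Baat (0.95 ± 0.27, adjusted p = 0.0453), the thioesterase Acot7 (0.84 ± 0.22, adjusted p = 0.0365) and Echdc2 (0.65 ± 0.17, adjusted p = 0.0357). Each of the 3 calls was lost without any 1 of healthy control replicates 1, 2, 3, 5 and 6 or RYGB replicates 1, 2, 4, 5 and 6 (0.0523 to 0.11), and that of Baat also without disease replicate 2 (0.054) or RYGB replicate 3 (0.055). The medium-chain acyl-CoA synthetase Acsm3 fell in disease from 29232 ± 3033 to 19540.2 ± 3104 (-0.59 ± 0.13, adjusted p = 0.0195) and was also lower in RYGB than in healthy control (-0.53 ± 0.13, adjusted p = 0.0259). Acsm3 was not called in disease without disease replicate 3 (0.062) or 4 (0.0507), with the compared groups alone (0.0562) or with the replicate block in them (0.0708), or after quantile normalization (0.142), nor in RYGB without healthy control replicate 1 (0.0705), after quantile normalization (0.0725) or without RYGB replicate 1 (0.0629), 5 (0.0678) or 6 (0.0593). Its relative Acsm5 fell in RYGB, to 441 ± 78.6 from 662 ± 123 in disease (-0.58 ± 0.13, adjusted p = 0.0175; 0.0521 without disease replicate 2) and 655 ± 51.8 in healthy control (-0.58 ± 0.13, adjusted p = 0.0183). Acsl4, an acyl-CoA synthetase that prefers arachidonic acid, was lower in RYGB than in healthy control, 2559 ± 445 against 3869 ± 569 (-0.60 ± 0.14, adjusted p = 0.0261), a call lost on leaving out healthy control replicate 1 or 6 or RYGB replicate 1, 2, 4 or 6 (0.0554 to 0.0765). Echdc2, related to enoyl-CoA hydratases, rose in RYGB against disease (0.76 ± 0.17, adjusted p = 0.0156).

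Among 28 tested of 36 further PPAR-alpha targets and partners, 1 fell in disease against healthy control, and 1 rose and 1 fell in each RYGB comparison. This is 3.57%, 7.14% and 7.14% of the list, beside 1.61%, 3.95% and 4.44% of all genes. The malic enzyme Me1, which makes NADPH for lipid synthesis, had 2678 ± 606, 1479 ± 218 and 1019 ± 119.8 normalised reads in healthy control, disease and RYGB. It fell in disease (-0.84 ± 0.14, adjusted p = 0.00376) and in RYGB against healthy control (-1.37 ± 0.14, adjusted p = 0.000111). In RYGB against disease Me1 fell by 0.53 on the log2 scale (adjusted p = 0.0424), a call lost without healthy control replicate 2, 5 or 6, disease replicate 1, 2, 4, 5 or 6, or RYGB replicate 1, 3, 4, 5 or 6 (0.0502 to 0.109). Cyp4a3, a fatty acid omega-hydroxylase with close paralogs, rose in RYGB against disease from 4664 ± 1096 to 9601 ± 1937 (1.05 ± 0.22, adjusted p = 0.0107). The lipid droplet protein Plin5 rose in RYGB against healthy control from 27 ± 20.6 to 56.5 ± 17.8 (1.27 ± 0.36, adjusted p = 0.0484), and was not called without any 1 of healthy control replicates 1, 2, 3, 5 and 6, disease replicates 1, 2 and 4 and RYGB replicates 1, 2, 4, 5 and 6 (0.053 to 0.13). Among 13 tested of 16 peroxisome assembly genes, the import receptor Pex5 rose in RYGB against disease (0.77 ± 0.17, adjusted p = 0.016) and its anchor Pex26 rose in RYGB against healthy control (0.50 ± 0.14, adjusted p = 0.0457). Pex26 was not called without any 1 of healthy control replicates 1, 2, 3, 5 and 6, disease replicate 2 and RYGB replicates 1, 2, 4, 5 and 6 (0.0519 to 0.122), and no gene of this list was called lower. The calls among peroxisome assembly genes are 0%, 7.69% and 7.69% of the list in the 3 comparisons, beside the same 1.61%, 3.95% and 4.44% of all genes. The 7.69% is 1 gene of 13.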

How the data were processed

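RNA-seq of kidney cortex was deposited for 18 libraries, 6 each of healthy control, disease and RYGB, grouped by title. Per the labels' protocols the sections were flash frozen and libraries made with a stranded mRNA kit. The deposited table holds a signal for each gene: the authors divided its read count by the library's size factor (0.401 to 2.02). Genome build Rnor_5.0 and the tools HTSeq 0.6.1p1, DESeq2, FastQC 0.11.2 and MultiQC 0.9 are named per the submitters' processing notes. Aligner, annotation and the strand setting of the counting were not given in the sources used here. Rows naming no gene (no feature 27.6 to 43.2%, not unique 13.5 to 18.1%, ambiguous 0.0695 to 0.114% of counted reads) were left out. Whole reads were recovered for at least 99.9946% of a library's values within 0.01 reads.

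In R 4.3.3, log2(value + 1) was tested with limma 3.58.1 (trended variance), 1 fit of 3 group means over 18 libraries, for genes of at least 10 in at least 6 libraries, two-sided, with Benjamini-Hochberg adjustment over 13988 genes per comparison. A log2 fold change on this scale understates the change of low genes. Alternatives were edgeR 4.0.16 and DESeq2 1.42.0 on recovered reads, other pseudocounts, filters and scalings, array weights, the compared groups alone, a replicate block and each library left out; the block in the compared groups alone was added after seeing the data. The fitting code was tested on simulated data.

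The members and all lists were chosen with earlier results of these data known. Values are given per library for every called member, for the member with the smallest adjusted p in each role without a call, and for Ppara, Ppargc1a and Cpt1a; of each other list at most 3 called genes per comparison are named. One gene was left out of these lists and is not reported here. Replicate numbers recur in the 3 groups, and the labels do not say that they pair libraries. Same-numbered libraries' deviations from their group means had correlations of 0.131 to 0.325 between disease and healthy control. There 3 of 6 correlated best with their own number. The correlations were -0.557 to 0.309 between RYGB and disease and -0.31 to 0.0141 between RYGB and healthy control. Every pair of libraries within a group differed beyond sampling noise (chi-square over its degrees of freedom at least 22.5). Whether the libraries come from separate animals is not in the labels, so p-values measure the spread between libraries, which may be technical. Promoter sequences are from RefSeq (GRCr8), a build other than that of the counts.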

Additional observations from a re-analysis of the deposited data

Results flagged for a closer look

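In 26 of 157 groups of 6 libraries examined, 1 library lay further from the rest than the critical value of Dixon's test allows; chance gives about 1 in 20 groups. Values are normalised read counts and no cause was tested.

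Healthy control replicate 4 accounts for 11 of them. It was high in the carnitine transferase Cpt1b, at 525 (the other 5 at 134 to 210.1), and in the dehydrogenase Acad11, at 3459 (the other 5 at 2199.8 to 2611). Among enzymes for unsaturated chains it was high in Eci1, at 10141 (the other 5 at 2611 to 3935), and in Decr1, at 9677 (the other 5 at 3163 to 4176). The electron acceptor Etfb stood at 10595 (the other 5 at 4859.7 to 6834) and the kinase Pdk4 at 3052 (the other 5 at 352 to 579.5). Of peroxisomal genes Acaa1a stood at 8669 (the other 5 at 3420.2 to 5194) and Ehhadh at 10592 (the other 5 at 4040.2 to 6005). The acyl-CoA synthetase Acsl1 stood at 12429.7 (the other 5 at 5567 to 7870.3) and Plin5 at 66.2 (the other 5 at 8.76 to 29.8). Oxct1 alone was low in it, at 13129 (the other 5 at 28440.2 to 34987). It was also the library with the fewest reads in genes, 8116638.

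Healthy control replicate 1 was low in Acads, at 824 (the other 5 at 1491 to 1822), in Hadhb, at 6198 (the other 5 at 7303 to 7681), and in Pex26, at 415 (the other 5 at 586 to 630). The same library was high in Acsl4, at 4983 (the other 5 at 3449 to 3923). Healthy control replicate 3 was high in Acox2, at 178 (the other 5 at 90.8 to 121). Of the disease libraries, replicate 6 was high in Pdk4, at 1288 (the other 5 at 495 to 771), and in Ppara, at 1202 (the other 5 at 372 to 644). Disease replicate 5 was high in Acox2, at 84.8 (the other 5 at 37.4 to 53.2), disease replicate 4 in Baat, at 908 (the other 5 at 341 to 539.7), and disease replicate 2 held the only Ucp3 reads, at 1.96 where the other 5 were at 0.

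RYGB replicate 2 was high in Cpt1b, at 419 (the other 5 at 136 to 235), and in Plin5, at 91.6 (the other 5 at 43.7 to 55.4). RYGB replicate 3 was low in Crat, at 3890.5 (the other 5 at 5205 to 5696), and high in Acadm, at 19244 (the other 5 at 14388 to 15377), and Baat, at 637 (the other 5 at 285 to 412).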

How the results depend on the processing

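Of the 30 alternatives, the median fold change of every role moved by less than the spread between libraries in each comparison. Percentages in brackets are the share of all genes called in that setting. The count of members called in disease against healthy control was 2 over all libraries (1.61%). It was 1 with log2(value + 0.5) (1.56%), with no filter (1.34%), with a minimum of 50 (1.19%) and by edgeR (1.6%). It was 0 with the replicate block over all groups (1.13%) and 3 with the block in the compared groups alone (1.8%). Leaving out 1 library gave 0 to 3 (0.888 to 2.22%). In RYGB against disease the count was 0 (3.95%). It was 1 after quantile normalization (4.72%), TMM rescaling (4.05%) or array weights (7.76%) or by edgeR (4.5%), and 2 by DESeq2 (7.85%). Leaving out 1 library gave 0 to 1 (1.86 to 5.86%). The replicate block gave 0 over all groups (2.92%) and in the compared groups alone (0.972%). In RYGB against healthy control the count was 3 (4.44%). It was 5 after quantile normalization (5.79%), 6 with the compared groups alone (10.3%) and 19 with array weights (34.7%). By DESeq2 it was 6, beside 1602 of all 13988 genes. Leaving out 1 library gave 1 to 11 (1.46 to 10.8%). The replicate block gave 3 over all groups (3.55%). In the compared groups alone the block gave 2 (3.51%), with Hadh at an adjusted p of 0.0624. The cause of these changes was not tested, except that leaving out a library or a group also removes samples. No fold change past the threshold changed direction. Reversals were among small fold changes: Hadh in disease against healthy control without healthy control replicate 1 (-0.00554; without 1 library -0.00554 to 0.196), Ppara in disease with array weights (-0.154) and without 1 library (-0.0409 to 0.322), and Cpt1a in RYGB against healthy control with array weights (-0.0983) and without 1 library (-0.0263 to 0.229). Cpt1a in RYGB against disease was 0.0134 by edgeR and 0.00175 by DESeq2, and -0.173 to 0.0355 without 1 library. In the same comparison Ppargc1a ran from -0.198 to 0.0583 and Ppara from -0.112 to 0.288 without 1 library. Low counts limit Acot5, whose RYGB libraries held 3 to 17 reads each. Echs1 and Ucp3 stayed below the minimum value and were left untested, and why their counts were low was not tested.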
